A study of Mus musculus with 8 samples.

Results

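Expression of 9 transcription factors of white adipocytes was followed in RNA sequencing of isolated adipocytes: Pparg, Rxra and Nr1h3, Cebpa, Cebpb and Cebpd, Klf14 and Klf15, and Ebf2. They were picked by gene name from the 30387 genes of the normalized count table, in all 8 libraries. The study asked how loss of the Hippo pathway effectors YAP and TAZ in adipocytes changes gene expression on a standard diet (SD, normal chow) and on a high-fat diet (HFD). Primary white adipocytes came from epididymal fat of Ad-Yap/Taz-KO mice (here KO), in which floxed alleles of Yap and of Taz (fl/fl for each) are combined with Adipoq-Cre, and of wild-type littermates (WT). The mice were male per the study's methods. The 4 groups were WT SD, KO SD, WT HFD and KO HFD, with 2 libraries each, 1 mouse per library, and 4 weeks on the diet. Feeding began at week 5 of age according to the series text and at week 6 according to the methods. The Cre transgene is driven by the adiponectin promoter and is constitutive, so recombination is limited to cells that use this promoter and started before the diets did.

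White adipocytes are built and kept by a cascade of such factors. C/EBPβ (Cebpb) and C/EBPδ (Cebpd) act early in differentiation and switch on Pparg and Cebpa, which then maintain each other. PPARγ binds DNA as a heterodimer with RXRα (Rxra) and, with C/EBPα, switches on genes of lipid uptake, lipid storage and adipokines. Nr1h3 encodes LXRα, an oxysterol-sensing partner of RXRα, and EBF2 is a factor of adipocyte precursors and of the brown and beige fat programme. KLF15 is induced by glucocorticoids and acts in lipid and amino acid metabolism, and KLF14 comes from an imprinted gene that has no intron and is expressed from the maternal allele.

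Before the results, 3 properties of the libraries matter. The transcript of TAZ (Wwtr1) was lower in KO than in WT, at 2441 and 1957 against 5594 and 4743 normalized counts on SD and at 2060 and 2707 against 7121 and 6807 on HFD. Yap1 was at 1669 and 1699 against 2776 and 2717 on SD, and at 1549 and 2068 against 2468 and 2333 on HFD, where its adjusted p was 0.0591 in limma. Reads counted on genes were estimated at 13990000 to 22320000 per library, so that 1 read was worth 0.795 to 1.135 normalized counts. The WT HFD libraries were closer to each other than the libraries of any other group, with a median absolute log2 difference of 0.151 against 0.207 to 0.298. Calls of the followed factors that rest on them are also given with both averaged to 1 sample. For relatives, neighbours of Klf14 and gene lists such values are not given. Among markers of other cells, all 12 macrophage markers were higher in KO on both diets. Their sum was 2560 to 2576 normalized counts in WT HFD and 34318 to 37574 in KO HFD, and 5489 to 5541 in WT SD and 18521 to 33094 in KO SD. The sum of 8 adipocyte markers was 337760 to 344939 in WT HFD but 80897 to 163461 in KO HFD, and on SD it overlapped, at 183966 to 198087 in WT and 148563 to 215178 in KO. None of these 8 was at 0 in a group. On HFD the sum of 6 endothelial markers was 14625 to 14985 in WT and 19099 to 29331 in KO, with 2 called higher. The sum of 5 mesothelial markers was 119 to 151 in WT and 323 to 682 in KO, with Wt1 called higher, Msln called lower and a median log2 fold change of -0.61.

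RefSeq promoter windows (GRCm38.p6) were at hand for 6 of the 9 genes, with 10 annotated starts. The 250 bases before the start are shown for 4 members that were lower in KO on HFD, because these members moved together. For Pparg the downstream start of the adipocyte-selective transcript form was used. For Rxra the downstream start is shown, without data on which start adipocytes use. Capitals mark matches, on either strand, to AGGTCA (the nuclear receptor core), CCACCC (the box bound by KLF proteins), TTGCNNAA (C/EBP), CATTCC (TEAD, the DNA-binding partners of YAP and TAZ) and AGAACA (the glucocorticoid receptor core).
Pparg (chr6:115421816-115422065, + strand): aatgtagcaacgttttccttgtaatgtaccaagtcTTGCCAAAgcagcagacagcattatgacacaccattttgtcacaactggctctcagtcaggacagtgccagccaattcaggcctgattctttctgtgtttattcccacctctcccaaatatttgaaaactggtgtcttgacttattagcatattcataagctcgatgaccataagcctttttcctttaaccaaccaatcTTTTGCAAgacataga
Cebpa (chr7:35119043-35119292, + strand): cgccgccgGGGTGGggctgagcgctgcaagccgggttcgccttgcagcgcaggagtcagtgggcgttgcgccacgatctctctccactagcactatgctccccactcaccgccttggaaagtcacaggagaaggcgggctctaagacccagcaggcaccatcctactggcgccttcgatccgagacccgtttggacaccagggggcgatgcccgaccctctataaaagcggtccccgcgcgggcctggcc
Klf15 (chr6:90462326-90462575, + strand): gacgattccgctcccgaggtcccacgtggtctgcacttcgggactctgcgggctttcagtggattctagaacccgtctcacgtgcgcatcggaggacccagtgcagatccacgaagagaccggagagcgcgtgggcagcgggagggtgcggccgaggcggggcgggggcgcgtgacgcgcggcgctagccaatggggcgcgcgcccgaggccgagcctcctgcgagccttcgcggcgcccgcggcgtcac
Rxra (chr2:27709042-27709291, + strand): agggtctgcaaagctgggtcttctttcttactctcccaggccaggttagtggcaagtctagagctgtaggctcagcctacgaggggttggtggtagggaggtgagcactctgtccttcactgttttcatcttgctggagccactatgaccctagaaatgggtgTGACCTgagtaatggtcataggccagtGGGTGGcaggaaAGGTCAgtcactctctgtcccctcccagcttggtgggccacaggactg
The Pparg window held 2 C/EBP matches and no other, Cebpa held 1 KLF box, Klf15 held none of the 5 motifs, and the Rxra window held 2 nuclear receptor cores and 1 KLF box. Of the 10 starts, 6 held a KLF box, 3 a nuclear receptor core, 1 a C/EBP match and 0 a TEAD or glucocorticoid receptor match. Among 32851 promoters of the same length the shares with a match were 28.1%, 14.0%, 9.56%, 12.6% and 16.1% in the same order, TEAD before glucocorticoid receptor. Motifs differed between the starts of a gene. The Rxra start not shown held 2 KLF boxes and no nuclear receptor core. Each Pparg start not shown held 1 nuclear receptor core, and 1 of them also a KLF box. These are letter matches in a short window, and which start the reads came from is not resolved by counts per gene.

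On HFD, 5 of the 9 factors were lower in KO than in WT: Pparg, its partner Rxra, Cebpa, Klf15 and Klf14. None was called higher. In this comparison 15.1% of all tested genes were called lower and 17.1% higher, 32.2% together. A gene was called at an adjusted p of at most 0.05 (limma, Benjamini-Hochberg over 18800 genes) and an absolute log2 fold change of at least 0.59. The median over the 9 members was -1.24 on the log2 scale, beside 0.095 over all tested genes. Klf14 passed the filter on low values only through its WT HFD libraries, so its call here is not independent of that filter. The other called members, Pparg, Rxra, Cebpa and Klf15, do not have this limit.

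Among the nuclear receptors, Pparg was at 4129 and 4020 normalized counts in WT HFD and at 1819 and 1523 in KO HFD. Its log2 fold change was -1.29 ± 0.17 (SE, n = 2 and 2; limma adjusted p = 0.000104), and the KO libraries did not reach the WT libraries. Rxra, the shared heterodimer partner, was at 4529 and 5321 in WT HFD and at 1945 and 1308 in KO HFD, a log2 fold change of -1.62 ± 0.22 (limma adjusted p = 0.000144). Both KO libraries lay below every other library of the data set for Pparg and for Rxra. Nr1h3 was at 1640 and 1867 in WT HFD and at 1635 and 958 in KO HFD. KO HFD replicate 1 was thus level with the lower WT library, and only replicate 2 was clearly lower. The fitted difference for Nr1h3 was -0.48 ± 0.21 and was not called (limma adjusted p = 0.0965). It was -0.10 without KO HFD replicate 2 and -0.87 without KO HFD replicate 1, where it was called (limma adjusted p = 0.00196).

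The C/EBP genes split. Cebpa was at 10206 and 10618 in WT HFD and at 6380 and 3061 in KO HFD, a log2 fold change of -1.24 ± 0.26 (limma adjusted p = 0.00312). The KO libraries were both below WT but far apart from each other, and the estimate was -0.71 without KO HFD replicate 2 and -1.77 without KO HFD replicate 1. Cebpb was at 1647 and 1658 in WT HFD and at 1843 and 1520 in KO HFD. The KO libraries lay on either side of WT, and the difference was 0.02 with a 95% interval of -0.40 to 0.43. Cebpd was at 2107 and 2063 in WT HFD and at 1436 and 1701 in KO HFD, both lower. Its log2 fold change of -0.42 ± 0.16 was not called (limma adjusted p = 0.0553). On the opposite strand, Tmem189 covers 20.7% of the exon bases of Cebpb and Spidr covers 15% of those of Cebpd. The authors left out reads that fell on more than 1 gene, so reads from these stretches may be missing from the counts. The strand setting of the counting is not given in the sources used here.

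Klf15 had the largest called change among members with reads in every library, at 759 and 699 in WT HFD and 240 and 180 in KO HFD. The log2 fold change was -1.80 ± 0.22 (limma adjusted p = 6.87e-05), and the KO HFD mean was 28.8% of the WT HFD mean. Klf14 was at 329 and 239 in WT HFD, about 350 and 225 reads, and at 0 in both KO HFD libraries. Against a floor of 3 reads per library, Klf14 was at least 101-fold lower in KO on HFD. The fitted value of -8.14 (limma adjusted p = 2.77e-05) depends on the 1 that was added before the logarithm and is no bound. Ebf2 was at 694 and 640 in WT HFD and at 780 and 751 in KO HFD. The KO libraries were both slightly higher, but the difference of 0.20 was not called (limma adjusted p = 0.39), with an interval of -0.17 to 0.57.

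**Figure D1:**
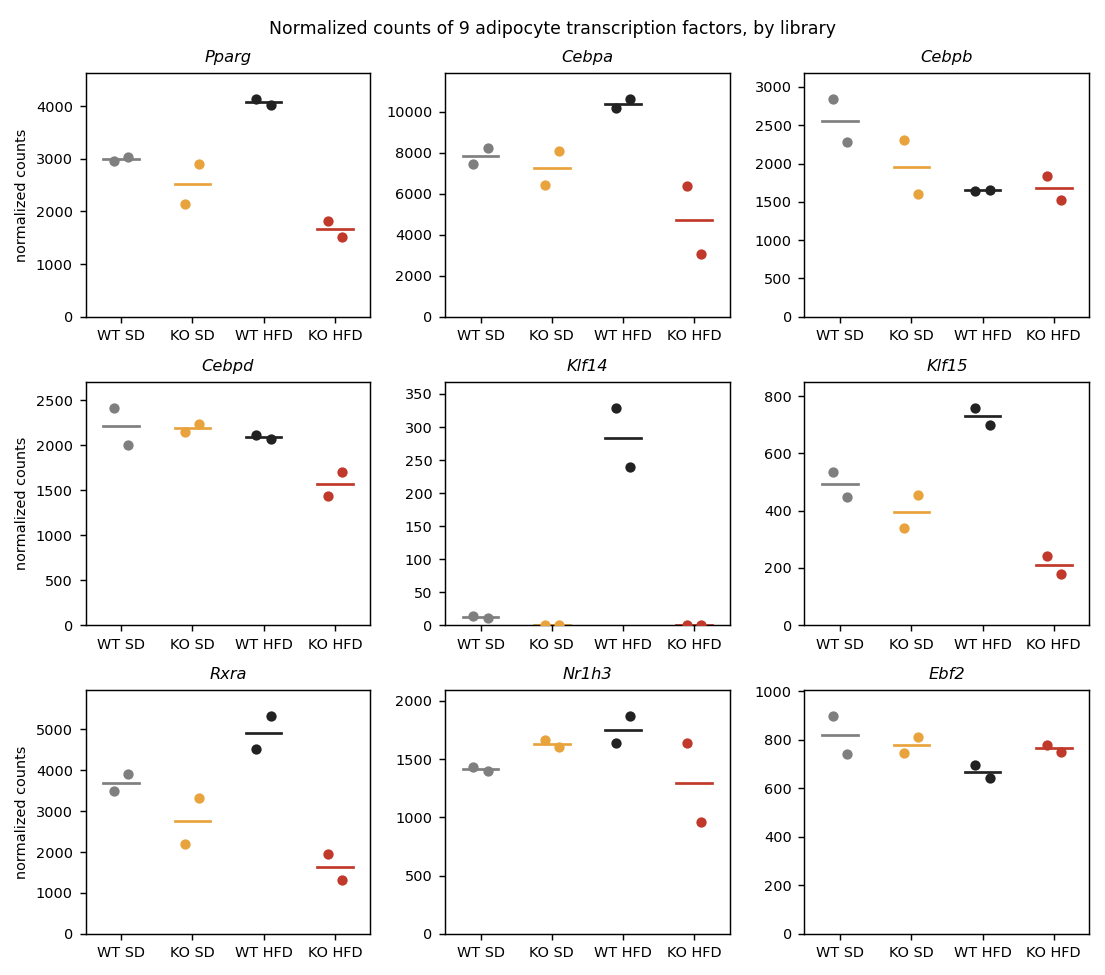
Normalized counts (y axis, from 0, a scale per gene) of the 9 transcription factors in WT SD, KO SD, WT HFD and KO HFD; each point is 1 library and each line the mean of the 2 libraries. Pparg, Cebpa, Rxra and Klf15 were highest in WT HFD and lowest in KO HFD, Klf14 was at 0 in all 4 KO libraries, and Cebpb and Ebf2 did not follow that pattern.

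The 5 members called lower on HFD were called under each of the 12 alternative settings and with any library of the 2 groups left out, and also with the WT HFD libraries averaged, where the adjusted p of Cebpa rose to 0.0368. In bulk RNA, fewer adipocytes in the preparation and less RNA per adipocyte cannot be told apart, and the adipocyte and macrophage marker sums above moved with this comparison. Their part in the result was not tested. Set against the 8 adipocyte markers of the same library, Pparg gave 11.97 and 11.9 normalized counts per 1000 marker counts in WT HFD and 11.1 and 18.8 in KO HFD. Cebpa gave 29.6 and 31.4 in WT HFD and 39.0 and 37.8 in KO HFD. Rxra gave 13.1 and 15.8 in WT HFD and 11.9 and 16.2 in KO HFD. For Pparg and Rxra the WT libraries lay between the KO libraries. For Klf15 the WT libraries gave 2.20 and 2.07 and the KO libraries 1.47 and 2.23, again overlapping. Klf14 was at 0 in KO HFD against 0.954 and 0.708 in WT HFD. These ratios turned on single markers, since Lep alone made up 21.1% and 21.8% of the marker sum in WT HFD but 4.44% and 1.91% in KO HFD. With Lep left out of the sum, Cebpa overlapped, at 37.5 and 40.2 in WT HFD and 40.8 and 38.6 in KO HFD. Rxra then lay below WT without overlap, at 16.6 and 20.1 against 12.5 and 16.5, as did Klf15, at 2.79 and 2.65 against 1.54 and 2.27. With Fabp4 left out instead, Rxra lay above WT, at 16.2 and 18.9 against 19.6 and 29.5, and so did Pparg, at 14.7 and 14.3 against 18.3 and 34.3. The ratios to the markers thus give no direction for Pparg, Rxra or Klf15, which overlapped WT with the full sum. Cebpa lay above WT with the full sum and with any single marker but Lep left out, and in no version below it. The members not called on HFD, Cebpb, Cebpd, Nr1h3 and Ebf2, lay above WT without overlap in every version. Cebpb, for example, gave 4.775 and 4.909 in WT HFD and 11.275 and 18.789 in KO HFD with the full sum. Since the 8 markers are themselves genes that PPARγ and C/EBPα drive, this ratio does not separate cell number from expression.

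**Figure D2:**
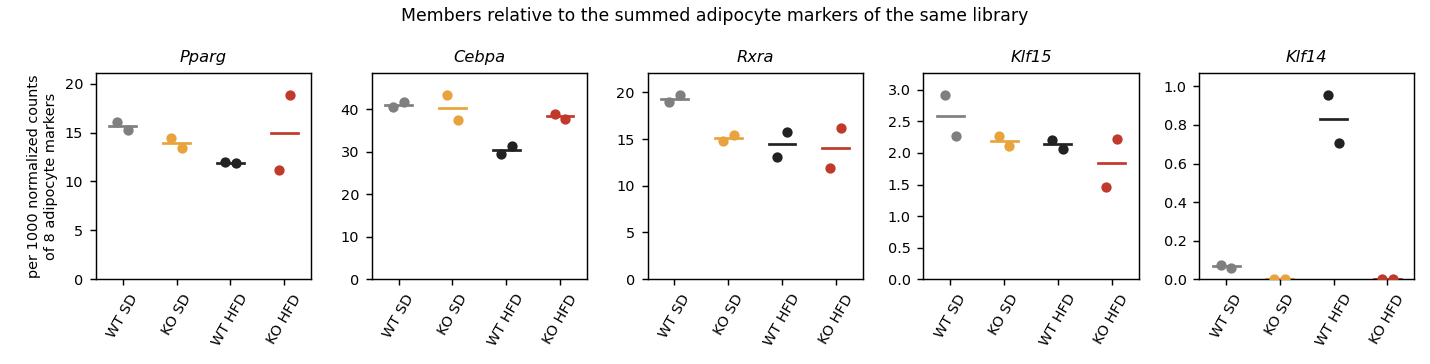
The 5 members that were lower in KO on HFD, as normalized counts per 1000 summed normalized counts of 8 adipocyte markers in the same library (y axis, from 0); points are libraries and lines are group means of 2 libraries. In KO HFD, Pparg (11.1 and 18.8) and Rxra (11.9 and 16.2) straddled WT HFD, Cebpa lay above it, and Klf14 was at 0; with Lep left out of the marker sum Cebpa overlapped WT HFD and Rxra and Klf15 lay below it.

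On SD, the genotypes differed in the call of 1 member, Klf14, in a comparison where 4.71% of all tested genes were called in either direction with 1.5% lower and 3.21% higher. Klf14 was at 14 and 11 normalized counts in WT SD, about 14 and 10 reads, and at 0 in both KO SD libraries. With a floor of 3 reads this is at least 3.94-fold lower (fitted value -3.75, limma adjusted p = 0.0319), and the call was lost when any of the 4 SD libraries was left out, with adjusted p of 0.0554 to 0.174. It was also lost with the WT HFD libraries averaged (limma adjusted p = 0.126).

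The other 8 members did not pass the test on SD. Rxra was at 3483 and 3899 in WT SD and at 2192 and 3316 in KO SD, with both KO libraries below WT and a wide gap between them (-0.45 ± 0.22, limma adjusted p = 0.325). Pparg was at 2956 and 3028 in WT SD and at 2149 and 2899 in KO SD (-0.26 ± 0.17, limma adjusted p = 0.478), with an interval of -0.63 to 0.10. Cebpa was at 7477 and 8253 in WT SD and at 6436 and 8081 in KO SD, and Klf15 at 536 and 448 in WT SD and at 338 and 455 in KO SD. In both genes the genotypes overlapped. Cebpb was at 2838 and 2284 in WT SD and at 2304 and 1606 in KO SD, and Cebpd at 2413 and 2005 in WT SD and at 2150 and 2230 in KO SD. These overlapped as well. Nr1h3 was the member with the highest KO level relative to WT, at 1661 and 1603 in KO SD against 1432 and 1394 in WT SD, with no overlap but a small difference (0.21, limma adjusted p = 0.684). Ebf2 was at 896 and 739 in WT SD and at 747 and 809 in KO SD, and overlapped.

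In WT adipocytes, Cebpb was called lower on HFD and Klf14 higher. Klf14 passed the filter on low values only through the WT HFD libraries, so its call is not independent of that filter. Here 18% of all tested genes were called, 8.74% higher and 9.22% lower, so 2 of 9 members is close to that share. Klf14 went from 14 and 11 to 329 and 239 normalized counts, a 22.7-fold difference of means (fitted log2 fold change 4.39 ± 0.90, limma adjusted p = 0.00692). Cebpb went from 2838 and 2284 to 1647 and 1658, a log2 fold change of -0.62 ± 0.19 (limma adjusted p = 0.0388). Both calls were lost with the WT HFD libraries averaged, at adjusted p of 0.104 for Klf14 and 0.204 for Cebpb. Leaving out WT SD replicate 1 or either WT HFD library also ended the Klf14 call, and leaving out any of the 4 WT libraries ended the Cebpb call.

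The main adipogenic factors were higher in every WT HFD library than in either WT SD library, without passing the test. Pparg differed by 0.45 (limma adjusted p = 0.0802), Klf15 by 0.57 (limma adjusted p = 0.0892), Rxra by 0.41 (limma adjusted p = 0.201), Cebpa by 0.41 (limma adjusted p = 0.291) and Nr1h3 by 0.31 (limma adjusted p = 0.323), but equal library totals put Cebpa, Rxra and Nr1h3 at or below 0, Pparg at 0.03 and Klf15 at 0.16. That scaling moved the median of all tested genes in this comparison from -0.078 to -0.476. All genes were shifted alike, so that relative to the median under each setting Pparg stood at 0.52 with the deposited scaling and at 0.51 with equal totals, Cebpa at 0.48 and 0.47, and Rxra at 0.49 and 0.48. With quantile normalization Pparg stood at 0.13, Cebpa at 0.067 and Rxra at 0.068. Cebpd overlapped between the diets, and Ebf2 was lower in both WT HFD libraries than in either WT SD library, by 0.29 on the log2 scale, not called (limma adjusted p = 0.247). Equal totals brought a call (-0.70, limma adjusted p = 0.0131), but relative to the median Ebf2 stood at -0.21 as deposited and -0.23 with equal totals. The adipocyte marker sum was 183966 to 198087 in WT SD and 337760 to 344939 in WT HFD. The macrophage marker sum was 5489 to 5541 in WT SD and 2560 to 2576 in WT HFD. The part of these shifts in the diet differences was not tested.

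In KO adipocytes no member was called between the diets, where 1.07% of all tested genes were called by limma (0.383% higher and 0.691% lower), and 5 members had an unadjusted p under 0.05, as did 15.5% of all tested genes (7.79% higher and 7.66% lower). These were Pparg, Cebpa, Cebpd, Klf15 and Rxra, each lower on HFD in both libraries. Klf15 went from 338 and 455 to 240 and 180 (-0.91 ± 0.22, limma adjusted p = 0.0737). Rxra went from 2192 and 3316 to 1945 and 1308 (-0.76 ± 0.22, limma adjusted p = 0.12), and Pparg from 2149 and 2899 to 1819 and 1523 (-0.58 ± 0.17, limma adjusted p = 0.117). The count of calls rested on single libraries. Without KO SD replicate 1 it was 3 (Pparg, Klf15 and Rxra), and without KO HFD replicate 1 it was 4 (Cebpa, Klf15, Rxra and Nr1h3), but calls over all 18800 genes also went from 202 to 961 and 739 in these fits. Klf14 had no read on either diet in KO, so no fold can be given.

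**Figure D3:**
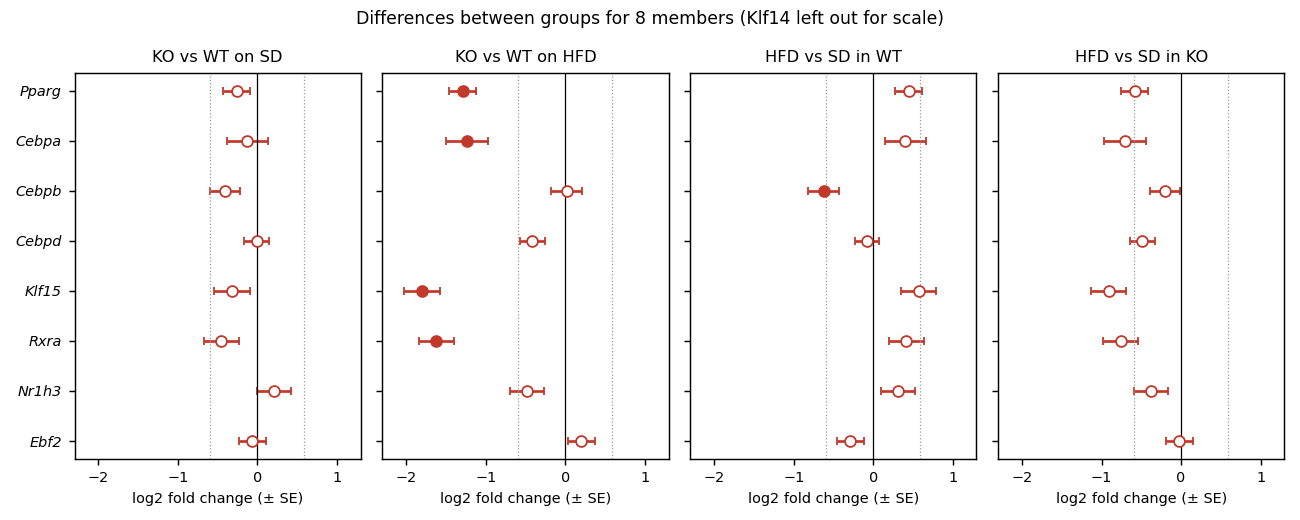
Log2 fold changes on the log2(normalized count + 1) scale (x axis, bars are SE from limma) of 8 members in the 4 comparisons; filled points were called, dotted lines mark 0.59 in either direction, and Klf14 is left out for scale. Pparg, Cebpa, Klf15 and Rxra were called lower in KO on HFD, and in the diet comparisons none of these 4 was called.

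The genotype difference itself differed between the diets for Pparg, Rxra and Klf15 by the interaction term of the fit, in which 17.4% of all tested genes were called, 8.73% lower and 8.69% higher. The term was -1.03 ± 0.24 for Pparg (limma adjusted p = 0.0147), -1.17 ± 0.31 for Rxra (limma adjusted p = 0.0247) and -1.48 ± 0.32 for Klf15 (limma adjusted p = 0.0109). The term of Klf14 also passed the threshold (-4.39 ± 1.27, limma adjusted p = 0.0339), but with KO at 0 on both diets it is the WT diet difference with its sign turned, and does not test whether the genotype difference depends on diet. Cebpa had a term of the same size, -1.11 ± 0.37, that was not called (limma adjusted p = 0.0557). For the remaining members the term was -0.69 in Nr1h3, -0.41 in Cebpd, 0.42 in Cebpb and 0.27 in Ebf2. All 4 calls were lost with the WT HFD libraries averaged, at adjusted p of 0.0637 to 0.159, and only Klf15 was called when libraries were scaled to the same total. Every comparison above shares samples with others, and the values are set side by side for that reason.

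Per kilobase of exon, which allows levels of different genes to be compared, Cebpa was the most abundant of the 9 factors in every group, at a mean of 2984 normalized counts per kb in WT SD and 3950 in WT HFD. In WT SD it was followed by Cebpb (1703), Pparg (1013), and then Rxra (676), Cebpd (590) and Nr1h3 (562), whose libraries overlapped from one to the next. Klf15 (176), Ebf2 (118) and Klf14 (4.09) were lowest. In WT HFD Pparg (1380) stood above Cebpb (1099), and Klf14 (92.9) was level with Ebf2 (96.3). In KO HFD Cebpa (1791) and Cebpb (1118) overlapped, Pparg (566), Nr1h3 (516) and Cebpd (419) overlapped in turn, and Ebf2 (110) stood above Klf15 (75.2). Rxra went from the fourth place in both WT groups to the sixth in both KO groups, where it was at 504 per kb on SD, overlapping Cebpd, and at 298 on HFD.

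Of 27 other genes of the same families, 26 were tested, and 8 were called higher, 2 lower and 16 not in KO against WT on HFD, beside 17.1% higher and 15.1% lower over all tested genes. Both members of the KLF family that were followed were lower, whereas of the other 14 tested Klf genes 6 were called higher and 0 lower. Klf10, a gene induced by TGF-β, was at 1222 and 1406 in WT HFD and at 2433 and 2960 in KO HFD (1.03 ± 0.18, limma adjusted p = 0.00083). Klf4, which acts at the onset of adipogenesis, was at 2848 and 2997 in WT HFD and at 4031 and 5420 in KO HFD (0.68, limma adjusted p = 0.0169). Klf5 (2.28, at most 92 normalized counts per library), Klf7 (0.92) and Klf11 (0.98) were also called higher, and Klf1 was at 0 in both WT HFD libraries and at 15 and 21 in KO HFD. Klf9, a glucocorticoid-induced relative, was at 4422 and 4860 in WT HFD and 4456 and 4837 in KO HFD. The macrophage and progenitor marker sums were higher in KO HFD too, 58902 to 63729 against 18611 to 18836 for 8 progenitor and fibroblast markers, and the part of these cells in the Klf genes was not tested.

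**Figure D4:**
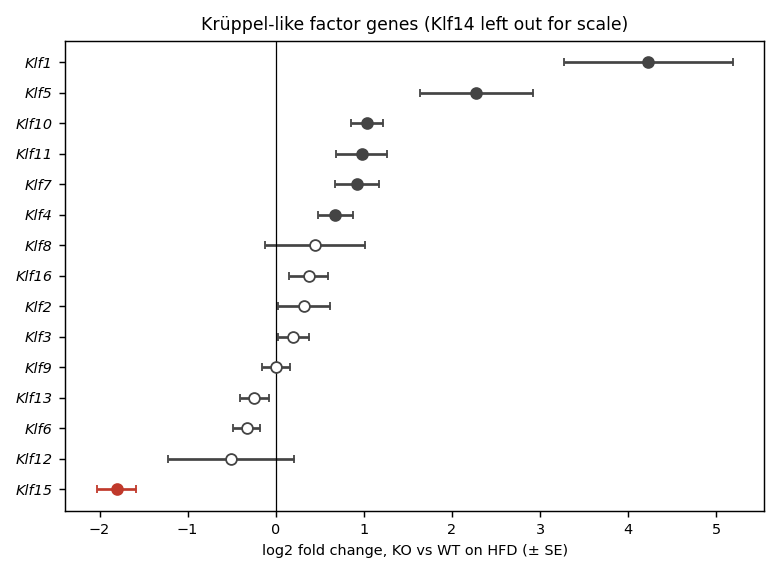
Log2 fold change of the Klf genes tested, KO against WT on HFD (x axis, on the log2(normalized count + 1) scale, bars are SE from limma); filled points were called, the member Klf15 is in red, and Klf14 (at 0 in KO) is left out for scale. Klf15 lies lowest at -1.80, and 6 genes were called higher; Klf1, at 0 in WT HFD, has a fitted value that depends on the added 1.

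Within the other families, Rxrb, the form of RXR found in most tissues, was at 375 and 367 in WT HFD and 416 and 330 in KO HFD, and Rxrg was called lower (-1.34, limma adjusted p = 0.0204). Neither relative of Pparg was called, Ppara at -0.29 (limma adjusted p = 0.441) and Ppard at -0.36 (limma adjusted p = 0.156). Nr1h2, which encodes LXRβ, was at 1198 and 1068 in WT HFD and at 1123 and 1053 in KO HFD, and overlapped. In contrast to Ebf2, its relative Ebf1 was called lower in KO on both diets, by -0.61 on SD (limma adjusted p = 0.0336) and -0.69 on HFD (limma adjusted p = 0.00326). Ebf3 was not called (-0.35, limma adjusted p = 0.147), and Ebf4 and Cebpe were called higher from at most 33 normalized counts per library.

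Klf14 lies on mouse chromosome 6 (GRCm38, 30956023 to 30959078, minus strand), in a domain with imprinted neighbours, and 4 genes beside it are described here. Mest, an imprinted gene expressed from the paternal allele, has its nearest base 207.6 kb from Klf14. It was at 1375 and 1567 normalized counts in WT SD, 295 and 220 in KO SD, 8231 and 8586 in WT HFD, and 214 and 306 in KO HFD. Mest was thus called lower in KO on SD (-2.52) and on HFD (-5.03) and higher on HFD in WT (2.52), the same order of groups as Klf14. Copg2, which encodes a coat protein of transport vesicles and lies 59.2 kb away, was at 905 and 941 in WT SD, 557 and 718 in KO SD, 1891 and 1945 in WT HFD, and 668 and 448 in KO HFD. It was called lower in KO on HFD (-1.81) and higher on HFD in WT (1.05). Mest and Copg2 overlap on opposite strands by 912 exon bases, 17.8% of those of Copg2, and reads from the shared bases may be missing from both counts, since reads on more than 1 gene were left out. Cep41, 262.3 kb away, was at 116 and 119 in WT HFD and at 16 and 45 in KO HFD (-2.08, limma adjusted p = 0.0166). Mkln1, 439.7 kb away on the other side, was at 1615 and 1865 in WT HFD and at 1643 and 1835 in KO HFD and was called in none of the comparisons.

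**Figure D5:**
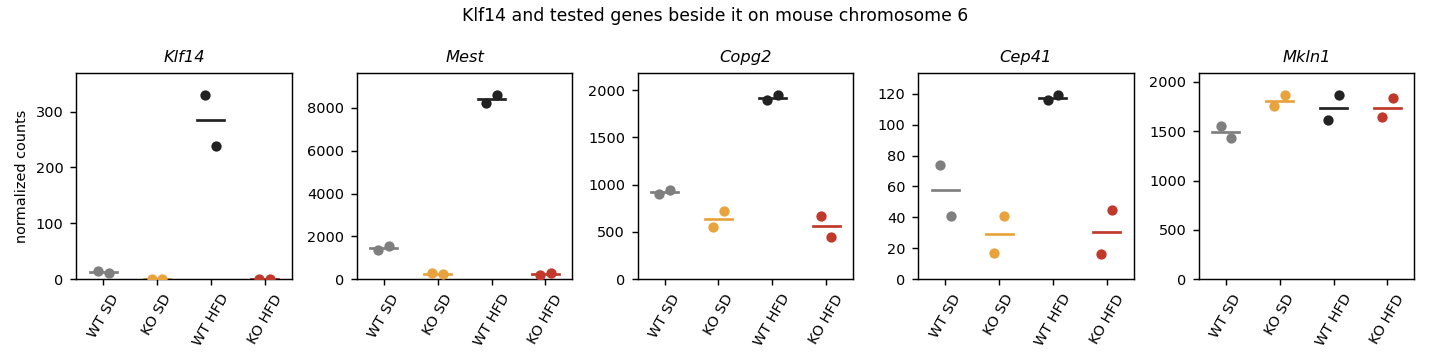
Normalized counts (y axis, from 0, a scale per gene) of Klf14 and 4 genes beside it on chromosome 6, by group; points are libraries and lines are means of 2 libraries. Klf14, Mest, Copg2 and Cep41 were highest in WT HFD, with Mest at 8231 and 8586 there and at 214 to 306 in KO HFD, and Mkln1 was of like height in all groups.

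The genes whose pattern was most like that of a member were ranked by Pearson correlation of log2 values over the 8 libraries, for the 12092 genes whose mean over all libraries reached 50. These values describe 8 libraries of 4 groups and share their group differences. For Klf14 the closest were Strn3 (r = 0.995), Mest (0.994) and Syp (0.992). The closest to Pparg were Serpina3c (0.997), Ctdspl (0.992) and Arhgef18 (0.992), and to Klf15 Bnip3 (0.992), Aacs (0.991) and Pparg itself (0.989). Rxra was nearest to Ercc6l2, H6pd and Ccdc90b (0.990 to 0.994) and Cebpa to Ube2g2, Ptpa and Dixdc1 (0.988 to 0.993). Pparg and Rxra had r = 0.984 with each other, and Pparg and Cebpa 0.912. The members without a called genotype difference had other neighbours: Acvr1, Junb and Tppp3 for Cebpb (0.911 to 0.932), Hsd17b10, Izumo4 and Cep85l for Cebpd (0.955 to 0.969), Eif2s3y, 2410015M20Rik and Abhd16a for Nr1h3 (0.962 to 0.989), and Mettl23, Bhlhe40 and Gm16059 for Ebf2 (0.937 to 0.973).

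Of 26 adipocyte genes listed as driven by Pparg and Cebpa, 18 were called lower in KO on HFD and 2 higher, beside 15.1% and 17.1% of all tested genes. The median log2 fold change of the list was -1.32, beside 0.095 over all tested genes. The largest falls were in Lep, which encodes leptin (-4.45), Dgat2, the last enzyme of triglyceride synthesis (-2.56), and Plin4, a lipid droplet coat protein (-2.07). The exceptions were Pdk4, an inhibitory kinase of pyruvate dehydrogenase (1.35), and Plin2, another droplet coat protein (0.85). All 8 adipocyte markers are among the 26, and their sum was 337760 to 344939 in WT HFD and 80897 to 163461 in KO HFD. The part of adipocyte and macrophage content in these counts was not tested. On SD, 1 of the 26 was called higher (Plin2, 1.08) and 1 lower (Angptl4, -0.72), beside 3.21% and 1.5% of all tested genes. The median there was -0.005. In WT, 10 were called higher on HFD and 2 lower, beside 8.74% and 9.22% of all tested genes, and in KO 2 were higher and 1 lower, beside 0.383% and 0.691%. The interaction term was called lower for 16 and higher for 1, beside 8.73% and 8.69%.

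LXR targets, which respond to the heterodimer of LXRα with RXRα, were called in both directions. Of 8 genes, 3 were called higher in KO on HFD and 1 lower, beside 17.1% and 15.1% of all tested genes. Their median log2 fold change was -0.28, beside 0.095 over all tested genes. Pltp, a phospholipid transfer protein, was at 942 and 1034 in WT HFD and at 5369 and 3643 in KO HFD (2.16), and the cholesterol exporter Abcg1 was at 928 and 893 in WT HFD and at 2315 and 1820 in KO HFD (1.17). Srebf1, the lipogenic factor, was lower (-0.90), and the 4 not called were at -0.51 to -0.14. On SD, 2 of the 8 were called higher, Pltp (1.66) and Abcg1 (0.86), beside 3.21% of all tested genes. The sum of the 12 macrophage markers, 2560 to 2576 in WT HFD and 34318 to 37574 in KO HFD, moved with these genes, and its part was not tested.

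Glucocorticoid-induced genes were followed because Klf15 belongs to them. In KO on HFD, 2 of 10 were called higher and 3 lower, beside 17.1% and 15.1% of all tested genes. Tsc22d3 (-1.85) and Zbtb16 (-1.79) fell, whereas Sgk1 rose (1.15). Tsc22d3 was also called higher on HFD in WT (1.40). Among 48 other adipocyte transcription factors and cofactors, 8 were called higher and 12 lower in KO on HFD, beside 17.1% higher and 15.1% lower over all tested genes, led by Ebf4 (2.84), Klf5 (2.28) and Mlxipl, which encodes the carbohydrate-response factor ChREBP (-1.50). On SD, 0 were called higher and 2 lower, Ddit3 (-1.34) and Ebf1 (-0.61), beside 3.21% and 1.5% of all tested genes. In WT on HFD 1 was higher and 8 were lower, beside 8.74% and 9.22% of all tested genes. These were led by Gata2 (-1.24), Klf10 (-1.22) and Ddit3 (-0.88). In KO, 0 of the 48 were called between the diets, beside 0.383% higher and 0.691% lower over all tested genes. The thermogenic genes are linked to EBF2 in brown fat. In KO on SD, 3 of 7 tested were called higher (Cidea 3.50, Cox8b 3.23 and Dio2 3.22), beside 3.21% of all tested genes. The other 4 were not called on SD, at -1.20 for Prdm16, -1.01 for Ucp1, -0.27 for Ppargc1a and -0.22 for Cox7a1, and the median of the 7 was -0.22. Ebf2 overlapped between the genotypes there. The YAP/TAZ targets included Amotl2 (-1.55 on SD and -2.17 on HFD) and Cyr61 (-1.41 and -1.72) as the largest falls among 7 tested, of which 2 were called lower on SD and 4 on HFD, beside 1.5% and 15.1% of all tested genes, with Axl higher on HFD (2.66).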

How the data were processed

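Adipocyte RNA was depleted of ribosomal RNA and made into libraries with the SMARTer Stranded kit. The authors trimmed reads, aligned them with STAR 2.5.2b, counted them per gene with featureCounts 1.5.1 and divided the counts by DESeq2 1.14.1 size factors. The deposited score is thus a normalized count per gene and library, rounded to whole numbers; depth was estimated from the steps between low values. Where 1 read is worth less than 1 normalized count, a rounded value can stand for more than 1 read number, so no count model was run. Each test used limma 3.58.1 in R 4.3.3 (lmFit and eBayes with trend) on log2(normalized count + 1), for 18800 genes with a mean of at least 5, with 4 group means in 1 fit (4 residual and 8.59 prior degrees of freedom). All 9 members passed this filter, Klf14 through the WT HFD libraries alone. Benjamini-Hochberg adjustment ran over all genes tested. Each library is 1 mouse. The p-values rest on the spread within the 4 groups, pooled, and through the prior on the spread of all genes tested. An exact permutation test of 2 against 2 cannot go below 0.333. The steps were tested on simulated data. Exon lengths and overlaps came from GENCODE vM21 (GRCm38). Fold changes understate low genes, and floors of 3 reads (2.39 to 3.41 normalized counts) cover counting error only. Named genes were the members, the 3 largest called changes of each list, relatives of the members' families, the genes beside Klf14 and the 3 most correlated genes; any others named were chosen after their values were seen. Some genes of the lists are not reported here. The members and lists were chosen with earlier results of these data known. Alternatives covered the pseudocount, the filter, scaling, the fit and leaving out libraries.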

Additional observations from a re-analysis of the deposited data

Results flagged for a closer look

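The genotype difference of 3 members differed between the diets by the interaction term of the limma fit: Pparg (-1.03), Rxra (-1.17) and Klf15 (-1.48). The term of Klf14 (-4.39) passed as well, but Klf14 was at 0 in KO on both diets, so it only restates the WT diet difference and is no test of this. In Pparg, Rxra and Klf15 both KO HFD libraries lay below both WT HFD libraries. All 4 are lost with the WT HFD libraries averaged, which also leaves 1 sample fewer, and with no filter on low values, while 1 is left with equal totals and 2 with quantile normalization. The adipocyte and macrophage marker sums moved with the same groups, whose part was not tested.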

How the results depend on the processing

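On HFD, the count of members called lower in KO stayed at 5 under all 12 other settings and was 5 to 6 when a library was left out, 6 without KO HFD replicate 1 (Nr1h3 added). On SD, the count of 1 (Klf14) became 0 with a pseudocount of 0.1 or 8, with no filter on low values, with a mean of at least 50, with only the 2 groups fitted, with the replicate block, with the WT HFD libraries averaged, and without any of the 4 libraries (range 0 to 0). For HFD against SD in WT, the count of 2 became 1 with a pseudocount of 0.1 or no filter, 3 with equal totals (Ebf2 added, lower) and 0 with the WT HFD libraries averaged, and was 0 to 1 with a library left out. In KO it stayed at 0, with 0 to 4 on leaving out a library. The interaction count of 4, Klf14 included, became 0 with no filter, 1 with equal totals, 2 with quantile normalization, 3 with a pseudocount of 0.1 or a mean of at least 50, 5 with a pseudocount of 8 (Cebpa added) and 0 with the WT HFD libraries averaged, and was 0 to 6 on leaving out a library. Fewer samples or more genes tested set apart the averaged, left-out and unfiltered fits. For the other settings the cause was not tested. Klf14, which passed the filter only through WT HFD, is included in the main counts for HFD, SD, WT and the interaction.

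Equal totals moved the median of all genes from 0.095 to 0.467 for KO against WT on HFD, from -0.078 to -0.476 for HFD against SD in WT, and from 0.098 to 0.515 for the interaction. They turned the sign of Cebpa (-0.0076), Rxra (-0.0001) and Nr1h3 (-0.1052) for HFD against SD in WT and of Cebpd (0.0199) in the interaction, by this shift of all genes. Relative to the median, Pparg on HFD was -1.39 as deposited, -1.37 with equal totals and -0.92 with quantile normalization. Genes called higher and lower went from 3213 and 2840 to 4618 and 1367 on HFD, from 1643 and 1734 to 470 and 3568 in WT (1089 and 2194 with upper-quartile scaling), from 72 and 130 to 60 and 175 in KO, and from 1633 and 1641 to 2611 and 619 in the interaction (1971 and 1288 with upper-quartile scaling). With the WT HFD libraries averaged, all calls fell from 6053 to 3445 on HFD, from 3377 to 539 in WT, from 202 to 28 in KO and from 3274 to 517 in the interaction.

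Leaving out a library turned the sign of small differences. The ranges were -0.1205 to 0.1573 for Cebpb between the genotypes on HFD, and, between them on SD, -0.2875 to 0.0408 for Cebpa, -0.1401 to 0.127 for Cebpd and -0.2046 to 0.073 for Ebf2. For HFD against SD they were -0.2108 to 0.0563 for Cebpd in WT, and in KO -0.4608 to 0.0596 for Cebpb, -0.7677 to 0.0029 for Nr1h3 (called without KO HFD replicate 1) and -0.0799 to 0.035 for Ebf2. With the replicate number as a block (replicate block), the member counts were 5 on HFD, 0 on SD, 2 in WT, 0 in KO and 4 for the interaction. The labels give only a shared number, and deviations of same-numbered libraries correlated at -0.3 to 0.108 over 12093 genes. DESeq2 and edgeR on whole reads were not run, since the rounded values do not give every read number back. The marker ratios were recomputed with each marker left out (chosen after seeing the data). Those of Pparg, Cebpa, Rxra and Klf15 turned on Lep or Fabp4, and for Klf15 also on Cidec. With 2 libraries per group, the intervals bound differences that were not called.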
